A study of Macaca fascicularis with 6 samples.

Results

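The corneal epithelium transcribed 647 genes from which 2 or more annotated isoforms were counted at days 1 and 3 after corneal injury, and 8 of them passed an adjusted gene-level F test for a different mix of isoforms at the later day; 2 of the 8 also passed with a Simes p and 4 with DESeq2. These genes were chosen from isoforms marked as full splice matches (FSM), which match an annotated transcript along its whole splice structure. A gene was included when at least 2 of its FSM isoforms each had 10 or more counts summed over the 3 samples whose isoform tables share transcript names. The rule selected 1379 isoforms of 647 genes, out of 9843 FSM isoforms of 8913 genes. Of the 9843, 260 carry no reference gene name although they are marked FSM. The summed count chose the genes, so their abundance and their number of isoforms are descriptions, while the day and the cell class were not used in the choice.

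Most vertebrate genes can be spliced in more than 1 way, and the products of 1 gene can differ in their coding sequence, in their untranslated regions or in both. In an epithelium, families of RNA-binding proteins such as the hnRNP, SR and ESRP proteins choose among exons, and well-known targets include adhesion receptors, tropomyosins and regulators of the actin skeleton. After a corneal wound the epithelium slides over the defect, and basal cells at the limbus and in the basal layer then divide and differentiate to restore the layers. Keratin 12 (KRT12) marks differentiated corneal epithelium, and keratin 14 (KRT14) marks basal cells of stratified epithelia.

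The study took corneal epithelial cells from wild-type cynomolgus monkeys (Macaca fascicularis), captured single cells on a droplet platform and sequenced full-length cDNA with HIT-scISOseq, a long-read method for single cells. The 3 samples used for isoforms were both day 3 samples and replicate 2 of day 1, all after corneal injury. Replicate 1 of day 1 and the 2 uninjured samples carry transcript names of another system, and they enter only where no name has to be joined. The labels give neither the age of the animals nor whether replicates came from different animals; the p-values therefore rest on a spread among samples that may be technical. Day 1 was represented by 1 sample, and a difference between days cannot be told apart from a difference between that library and the others. In the day test, spread could be estimated only between the 2 day 3 samples (1 residual degree of freedom), with information shared across isoforms.

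Isoform counts on barcodes of the matching gene table numbered 2166030 and 2007273 in day 3 replicates 1 and 2 and 2896795 in day 1 replicate 2. The gene tables held 1096 and 1068 barcodes at day 3 and 1267 at day 1, and 64.0%, 63.6% and 97.4% of them were found in the isoform table of the same sample. At day 3 the gene-table barcodes without isoform counts were deeper than the matched ones, with medians of 5523 and 5383 against 3649 and 3495 gene counts. Of the 937, 658 and 326 barcodes that only the isoform tables held, 447, 171 and 64 occurred in the gene table of another sample, and these were left out. Gene tables shared at most 4 barcodes with those of the other samples. Markers were summed over the barcodes found in both tables, and CPM are counts scaled to the total of the barcodes summed. Differentiated corneal markers summed to 16801 and 15020 CPM at day 3 and 19120 CPM at day 1, with all 6 genes detected. The 6 basal or limbal markers reached 14019 and 13923 CPM at day 3 and 6568 CPM at day 1, and the 6 conjunctival markers 5282 and 5734 CPM at day 3 and 2452 CPM at day 1, with 2 of the 6 at 0 in every sample. Keratocyte markers summed to 820 and 810 CPM at day 3 and 185 CPM at day 1, immune markers to 139 to 197 CPM, melanocyte markers to 20.2 to 36.9 CPM and vascular markers to 1.5 to 2.89 CPM, and both hemoglobin genes were at 0. The part that these cell types play in the results on isoforms was not tested.

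Of the 647 genes, 573 had 2 isoforms, 64 had 3, 9 had 4 and 1 had 5. The isoforms were spread over nearly all samples, with 1374 and 1376 of 1379 counted in day 3 replicates 1 and 2 and 1373 in day 1 replicate 2. The median gene had 334 FSM counts over the 3 samples (range 21 to 65849), against 133 for genes with 1 FSM isoform of 10 or more counts. Together they held 9.82% and 9.98% of FSM counts at day 3 and 12.2% at day 1. The leading isoform held a median of 58.5% of the counts of its gene (range 25.6% to 99.9%). It held under 60% in 351 genes, 60% to under 80% in 187, 80% to under 95% in 85, and 95% or more in 24. The effective number of isoforms, which is 2 when a pair is used evenly, had a median of 1.95 and ran from 1.00 to 4.29. Just inside the threshold, 19 genes owed their place to a second isoform of 10 or 11 counts, and just outside it 25 genes had a second isoform of 8 or 9 counts.

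Even shares did not always come from isoforms counted in different cells. In many genes the isoforms had the same count in the same barcode, and the genes were therefore ordered by the share of barcodes with a count of either of the 2 most counted isoforms in which both counts were equal. The limits of 80% and 20% were set after this pattern had been seen. In 134 genes (20.7%) the counts were equal in at least 80% of such barcodes, and these are called matched genes here. In 200 genes (30.9%) the counts were equal in under 20% of barcodes, and these are called separate genes. The other 313 genes (48.4%) lay in between. The leading share had a median of 50.8% in matched genes, 58.0% in those in between and 81.2% in separate genes. Of the genes with 2 isoforms, 115 of 117 matched genes had a leading share of 50% to 55%, compared with 65 of 271 in between and 7 of 185 separate genes. Equal counts in most barcodes hold 2 shares near even, so these contrasts follow largely from how the groups were defined.

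**Figure D1:**
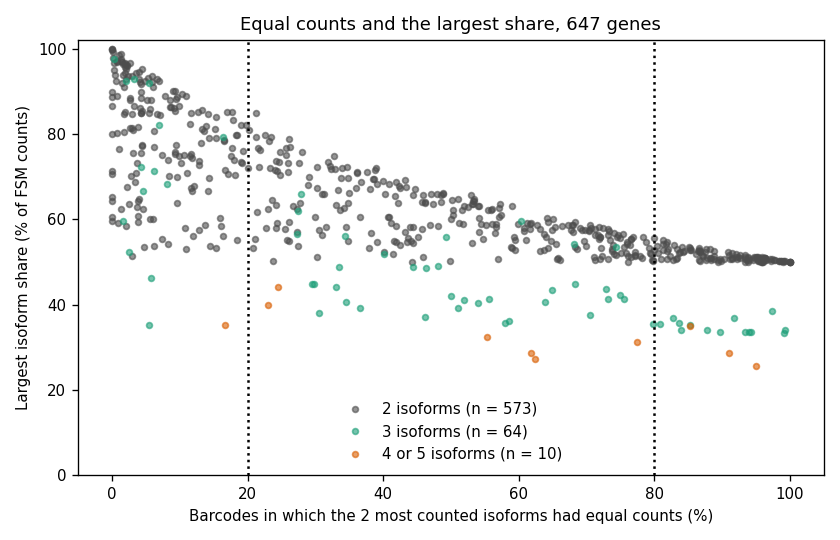
Each point is 1 of the 647 genes; the x axis gives the percentage of barcodes in which its 2 most counted isoforms had equal counts, and the y axis the largest isoform share as a percentage of the FSM counts of the gene, coloured by the number of isoforms. Genes with 2 isoforms come down to a share of 50% as the percentage of equal barcodes approaches 100, which equal counts require. The dotted lines mark 20% and 80%.

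The gene tables gave a second measure of the same genes. In the barcodes held by both tables, the FSM counts of matched genes came to a median of 133% of their gene-table counts (interquartile range 109% to 155%), and 105 of 130 such genes (80.8%) exceeded 100%. The median was 107% for genes in between, with 170 of 311 (54.7%) above 100%, and 78.5% for separate genes, with 11 of 198 (5.56%) above it. Genes with 1 FSM isoform had a median of 72.6%, and 97 of 6283 (1.54%) were above 100%. With isoforms of equal counts merged into 1, the median of matched genes was 69.8%. The sources used here do not say whether 1 read could be counted for several isoforms, and that was not tested.

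**Figure D2:**
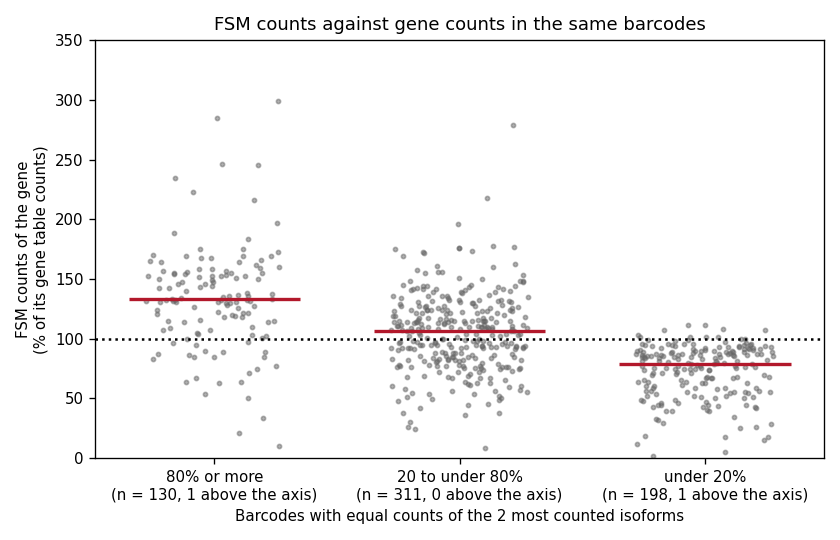
FSM counts of each gene as a percentage of its gene-table counts in the same barcodes (y axis) for genes whose 2 most counted isoforms had equal counts in at least 80%, in 20 to under 80%, or in under 20% of barcodes; red bars are the medians of 133%, 107% and 78.5%, and the dotted line is 100%. The number of genes above the axis is printed under each group.

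BCL2L13, a mitochondrial outer membrane protein of the BCL2 family, had 4 isoforms with 267, 261, 260 and 258 counts in day 3 replicate 1. The same isoforms had 231, 224, 223 and 222 counts in day 3 replicate 2 and 514, 496, 499 and 495 counts in day 1 replicate 2. Its leading pair had equal counts in 95% of barcodes, and its FSM counts were 285% of its gene-table counts. Each isoform thus held close to the same share in every sample, and no sample stood apart. PTBP1, a splicing repressor, had 3 isoforms with shares of 34.0%, 33.5% and 32.5% in day 3 replicate 1, 34.2%, 32.8% and 33.0% in day 3 replicate 2, and 33.9%, 33.9% and 32.1% in day 1 replicate 2. Its leading isoforms were equal in 83.9% of barcodes, and its FSM counts were 235% of the gene table. OXR1, which protects cells against oxidative damage, had 4 isoforms, 91.0% equal barcodes and 216%. In MBD1, a protein that binds methylated DNA, both isoforms had 38 and 37 counts at day 3 and 110 at day 1, and they were equal in 100% of 177 barcodes. PFKFB3, a regulator of glycolysis, was equal in 99.0% of barcodes, PLEKHM2, an adaptor for lysosome movement, in 95.9%, APLP2, a relative of the amyloid precursor protein, in 95.7%, and CTTN, the actin-binding protein cortactin, in 89.4%.

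Nested counts formed a further pattern, in which the lesser of the 2 most counted isoforms was not above the greater in a barcode. This held in at least 95% of barcodes in 122 matched genes, in 131 of those in between and in 72 separate genes. Barcodes with equal counts meet this condition, so the number of matched genes follows largely from how they were defined. Where 1 isoform held nearly all counts, as in RPS19 (100% of barcodes), such nesting is close to given. The leading pairs of GSN, RTN4 and ENSMFAG00000030493 were below the limit of 95%, at 84.4%, 69.4% and 74.5% of barcodes. GSN, the actin-severing protein gelsolin, had 4 isoforms with shares of 27.7%, 25.7%, 23.4% and 23.2% in day 3 replicate 1, of which the last pair was equal in 98.4% of barcodes. RTN4, a reticulon that shapes the endoplasmic reticulum, had 4 isoforms, and its leading isoform held 42.4% and 44.9% at day 3 and 36.8% at day 1. Both day 3 shares of that RTN4 isoform lay above the day 1 share, but the gene did not pass the test (adjusted p = 0.340). The gene with 5 isoforms, ENSMFAG00000030493, was separate, with its leading isoform at 35.6% and 37.1% at day 3 and 33.7% at day 1.

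The most counted genes were mostly separate and were dominated by 1 isoform. ALDH3A1, an aldehyde dehydrogenase that is a major soluble protein of the corneal epithelium, led with 65849 counts. Its isoform ENSMFAT00000030933 held 97.3% and 96.6% of them at day 3 and 98.2% at day 1, so both day 3 samples lay below the day 1 sample (adjusted p = 0.139). SAT1, an enzyme of polyamine breakdown, had 30647 counts, 99.9% of them from 1 isoform. RPS19, a protein of the small ribosomal subunit, had 18925 counts, and its leading isoform held 95.6% and 94.6% at day 3 and 95.1% at day 1, with the day 1 sample between the day 3 samples. CTSL, the lysosomal protease cathepsin L, had 1134 and 1005 counts at day 3 and 10656 at day 1. Its leading isoform held 72.9% in each day 3 sample and 78.9% at day 1, which did not pass the test (adjusted p = 0.170). The other genes among the most counted carry only Ensembl identifiers, ENSMFAG00000001097, ENSMFAG00000002566, ENSMFAG00000027717 and ENSMFAG00000017384, and their leading shares over the 3 samples were 91.0%, 84.9%, 99.3% and 93.9%.

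Isoform shares were close between samples. Across the 555 genes with at least 20 FSM counts in both day 3 samples, the share of the leading isoform correlated with r = 0.962 and had a median absolute difference of 1.95 percentage points, with 27 genes over 10 points apart. Between day 3 replicate 1 and day 1 replicate 2, r was 0.920 over 538 genes, the median difference 2.17 points, and 52 genes were over 10 points apart. Between day 3 replicate 2 and day 1 replicate 2, r was 0.924, the median 2.58 points, and 55 genes were over 10 points apart. These correlations are across genes, which are not independent replicates, and they include the matched genes, whose shares lay near even values in every sample. The same isoform led in all 3 samples in 560 genes (86.6%).

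The comparison of day 3 with day 1 asked which genes used their isoforms differently at the later time. Isoform usage was tested within genes with edgeR, with 2 samples at day 3 and 1 at day 1, and 8 of 647 genes passed an adjusted p of 0.05 (1.24%). At an unadjusted p of 0.05 there were 48. Of the 8, the gene-level Simes p of the same edgeR fit kept 2, ADH1B and ENSMFAG00000037730, and gave the other 6 adjusted p-values of 0.0516 (ERICH5) to 0.152 (PPP1CC). DESeq2 kept 4, ADH1B, ERICH5, ENSMFAG00000037730 and ATP5F1C. None of the 134 matched genes passed (0%), and none of them had an unadjusted p under 0.05. Of the genes in between, 1 of 313 passed (0.319%), and of the separate genes 7 of 200 (3.5%). The groups were set from the same counts, and equal counts hold shares near even in every sample. The test could therefore hardly call matched genes, and no conclusion is drawn from these rates. Among the 527 genes with at least 20 counts in every sample, the isoform that differed most did so by a median of 2.34 points between the days, and the same isoform differed by a median of 1.91 points between the day 3 replicates. More than 10 points separated the days in 48 genes and the day 3 replicates in 24. Both day 3 shares lay on 1 side of the day 1 share in 390 of the 527 (74%), so that separation of the samples alone is common among these genes.

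**Figure D3:**
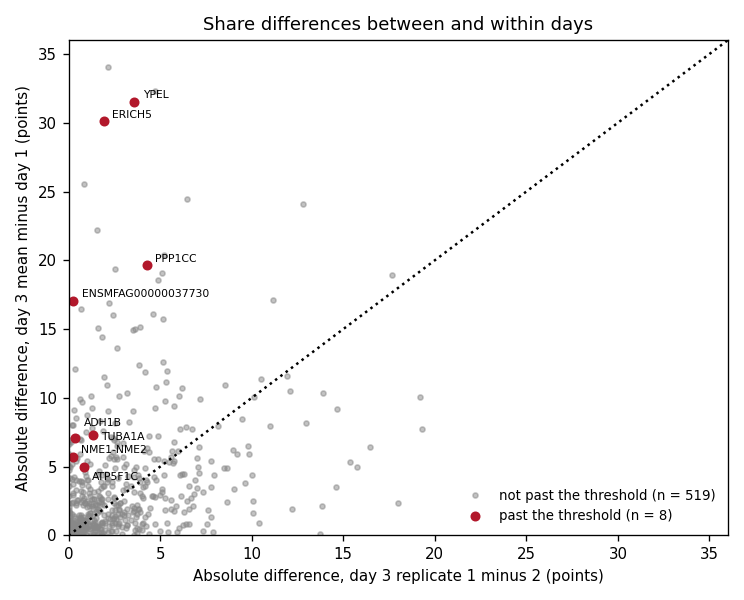
Absolute difference in share between the mean of the day 3 samples and the day 1 sample (y axis, percentage points) against the absolute difference between the day 3 replicates (x axis, percentage points), for the isoform of each of 527 genes that differed most between days. The 8 genes past the threshold are red and named, and all lie above the dotted line of equality; the grey point at the highest y value, 34.0 points, is TPM1, which did not pass.

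ERICH5, a glutamate-rich protein, changed its leading isoform. ENSMFAT00000024380 held 61.6% (95% Wilson interval 58.2% to 65.0%) and 59.7% (55.9% to 63.4%) of its counts in day 3 replicates 1 and 2, against 30.6% (28.1% to 33.2%) in day 1 replicate 2. The other isoform, ENSMFAT00000024382, held 38.4% and 40.3% at day 3 and 69.4% at day 1. Both day 3 samples lay far above the day 1 sample and did not overlap it, and the share was 30.1 points higher at day 3 (60.7% ± 1.36, SD, n = 2; adjusted p = 0.00526). At the level of the whole gene, over all barcodes of the gene tables, ERICH5 had 363 and 345 CPM at day 3. It had 392 and 377 CPM at day 1, and 1155 and 1108 CPM in uninjured samples. These values include gene-table barcodes without isoform counts, which the shares leave out.

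The gene listed as YPEL also had another leading isoform at day 3 than at day 1. ENSMFAT00000007431 held 65.9% (60.2% to 71.1%) and 62.3% (56.3% to 67.9%) at day 3, against 32.5% (26.5% to 39.2%) at day 1. The day 3 samples were both above the day 1 sample by about the same amount, 31.5 points on average (adjusted p = 0.0104). These shares rest on 191, 165 and 68 counts of the isoform, and the FSM counts of the gene came to 42.9% of its gene-table counts.

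PPP1CC, the gamma catalytic subunit of protein phosphatase 1, has splice forms that are known to differ at the end of the protein. ENSMFAT00000011824 held 34.7% (28.4% to 41.5%) and 38.9% (32.6% to 45.7%) at day 3, against 17.2% (13.9% to 21.0%) at day 1. Both day 3 samples were higher and their intervals did not reach that of day 1 (19.6 points, adjusted p = 0.0379). ENSMFAT00000011842 remained the leading isoform in all 3 samples, with 65.3% and 61.1% at day 3 and 82.8% at day 1.

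ATP5F1C, the gamma subunit of the mitochondrial ATP synthase, is spliced differently in muscle and other tissues. Its minor isoform ENSMFAT00000065011 held 5.77% (4.04% to 8.16%) and 6.61% (4.72% to 9.18%) at day 3, against 1.18% (0.574% to 2.42%) at day 1. Both day 3 samples were higher, by 5.01 points on average (adjusted p = 0.0302), from 29 and 32 counts at day 3 and 7 at day 1. The call was lost with limma voom (adjusted p = 0.0695).

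ADH1B, an alcohol dehydrogenase, had 3 isoforms and was the only gene in between that passed. ENSMFAT00000018864 held 10.1% (8.54% to 12%) and 9.75% (8.11% to 11.7%) at day 3, against 2.86% (2.33% to 3.5%) at day 1. The day 3 samples were close to each other and both above day 1 (7.08 points, adjusted p = 0.00445, the lowest of all genes). This isoform was equal to the leading ENSMFAT00000018886 in 4.05% of barcodes and to ENSMFAT00000018889 in 5.31%. ENSMFAT00000018886 and ENSMFAT00000018889 were equal to each other in 49.3%, with the lesser never above the greater in 99.8%. FSM counts of ADH1B were 145% of its gene-table counts. Over all barcodes of the gene tables, whole-gene levels were 329.6 and 322 CPM at day 3. They were 559.6 and 608 CPM at day 1, and 1289 and 1302 CPM in uninjured samples. Alcohol dehydrogenases of this class are near-identical paralogs, and how reads were split among them is not given in the sources used here.

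TUBA1A encodes an alpha tubulin, a building block of microtubules. Its minor isoform ENSMFAT00000004721 held 15.3% and 16.6% at day 3, against 8.66% at day 1, and both day 3 samples were higher (7.29 points, adjusted p = 0.0294). The entry NME1-NME2 carries the name of a read-through of the neighbouring genes of 2 nucleoside diphosphate kinases. Its isoform ENSMFAT00000041376 held 9.77% and 10.0% at day 3, against 15.6% at day 1, and both day 3 samples were lower (a difference of -5.74 points, adjusted p = 0.0294). Alpha tubulins and nucleoside diphosphate kinases are near-identical gene families, so the share of reads that belongs to each copy is uncertain. With DESeq2, the calls of TUBA1A and NME1-NME2 (adjusted p = 1.0 for both), PPP1CC (0.410) and YPEL (0.0666) were lost.

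ENSMFAG00000037730 has no symbol in the tables. Its isoform ENSMFAT00000011199 held 25.3% (20.5% to 30.7%) and 25% (20.3% to 30.3%) at day 3, against 8.08% (6.61% to 9.83%) at day 1. Both day 3 samples lay above the day 1 sample by 17.1 points on average (adjusted p = 0.00526). Its FSM counts were 613% of its gene-table counts, so the 2 tables do not count this gene alike.

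**Figure D4:**
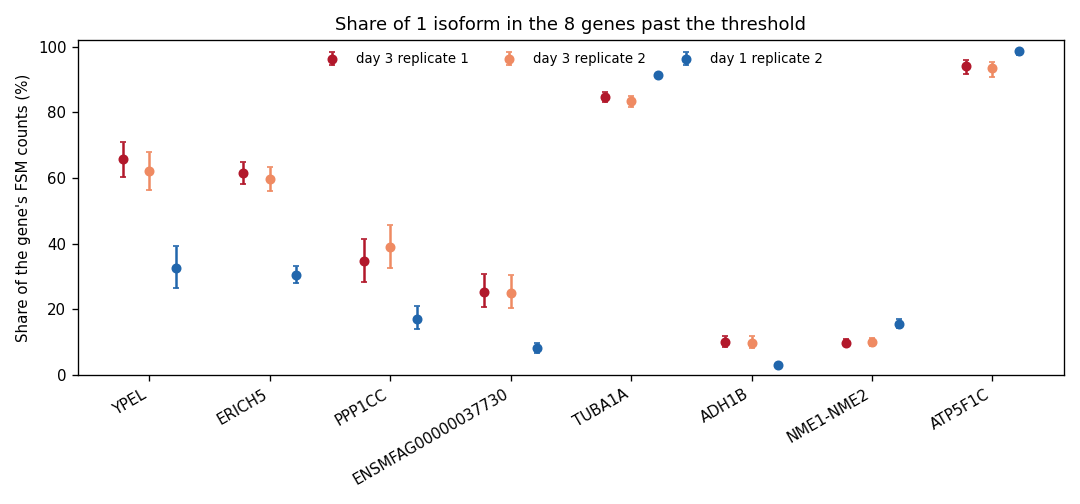
Share of 1 isoform of each of the 8 genes past the threshold as a percentage of the FSM counts of the gene (y axis), in day 3 replicate 1, day 3 replicate 2 and day 1 replicate 2; bars are 95% Wilson intervals of the counts and cover counting error only. The day 3 points lie together in every gene, above the day 1 point in YPEL, ERICH5, PPP1CC, ENSMFAG00000037730 and ADH1B, and below it in TUBA1A, NME1-NME2 and ATP5F1C; in TUBA1A and ATP5F1C the leading isoform is drawn.

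The 8 genes were also read within classes of cells. KRT12-high cells had a KRT12 share above the median of their sample and a KRT14 share at or below it, and KRT14-high cells the reverse. The medians that cut the classes were 0.0808% and 0.0843% of gene counts for KRT12 at day 3 and 1.16% at day 1, and 1.44% and 1.39% for KRT14 at day 3 and 0% at day 1. KRT12-high cells of day 3 held 0.655% and 0.616% KRT14, above the 0.485% of KRT14-high cells at day 1. A class therefore does not hold like cells on both days, and the values below describe the classes without setting aside the mix of cells. Between days, the ERICH5 isoform ENSMFAT00000024380 differed by 28.5 points within KRT12-high cells and by 39.1 points within KRT14-high cells. For YPEL the differences were 26.0 and 27.9 points, and for PPP1CC 15.3 and 15.5 points, in the same order. The leading ATP5F1C isoform differed by -7.08 and -6.00 points, that of TUBA1A by -6.11 and -13.2 points, and the NME1-NME2 isoform by -3.99 and -9.85 points. The ADH1B isoform differed by 3.96 points in KRT12-high and 15.5 points in KRT14-high cells, and that of ENSMFAG00000037730 by 2.53 and 20.2 points. In both classes the sign was that of the whole sample in all 8. The classes are parts of the samples whose difference named these genes, so this agreement is partly built in. No difference within a class was tested.

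In the list of textbook cases of regulated splicing, 18 of 28 genes with an FSM isoform had several. Of these 18, 1 passed, ATP5F1C, and 6 had an unadjusted p under 0.05, beside 8 and 48 of all 647 genes. The median of their largest differences was 2.96 points, against 2.65 points over all 647 genes. CAST, which encodes the calpain inhibitor calpastatin, came closest. Its isoform ENSMFAT00000035191 held 39.3% and 39.1% at day 3, against 30.1% at day 1, and ENSMFAT00000035188 held 33.8% and 33.1% at day 3, against 42.1% at day 1. The day 3 samples were alike and the order of the leading isoforms was turned round at day 1, with an adjusted p of 0.0503. CAST passed with limma voom (0.0358), with all barcodes of the isoform tables (0.0229) and with at least 50 counts per isoform (0.0253). It did not pass with DESeq2 or with the gene-level Simes p.

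Of 21 actin and tropomyosin genes with an FSM isoform, 7 had several, and 0 of 7 passed with edgeR (2 at an unadjusted p under 0.05). TPM1, a tropomyosin that lines actin filaments, had the largest difference of the 527 genes. ENSMFAT00000066053 held 35.1% (31.3% to 39.1%) and 33.0% (29.4% to 36.8%) of 575 and 619 counts at day 3, and 0 of 21 counts at day 1 (0% to 15.5%). The isoform was present in both day 3 samples and uncounted at day 1, where the gene itself was scarce, and the adjusted p was 0.170. DESeq2 gave TPM1 an adjusted p of 0.0389. Over all barcodes of the gene tables, TPM1 had 436 and 438 CPM at day 3. It had 22.1 and 24.4 CPM at day 1, and 155 and 149 CPM in uninjured samples. MYL12A, a regulatory light chain of myosin, had its leading isoform at 56.4% and 58.2% at day 3 and 53.4% at day 1 (adjusted p = 0.810).

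Of 31 splicing regulators with an FSM isoform, 12 had several, and 0 of 12 passed with edgeR, DESeq2 or limma voom, with 0 at an unadjusted p under 0.05. Their largest differences had a median of 2.35 points and reached 6.97 points in SRSF7. HNRNPK, an RNA-binding protein, had its leading isoform at 57.0% and 53.4% at day 3 and 57.2% at day 1. HNRNPU, which binds RNA and chromatin, had 87.1% and 83.4% at day 3 and 86.8% at day 1, with the day 1 sample between the day 3 samples. Neither difference exceeded that between the day 3 replicates.

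Of 35 genes of keratins and epithelial differentiation with an FSM isoform, 4 had several isoforms, and 0 of 4 passed with edgeR (1 at an unadjusted p under 0.05). All 4 were separate genes with a median leading share of 91.4%. PAX6, the transcription factor of eye development, had 84.3% and 86.4% of its counts from 1 isoform at day 3 and 88.0% at day 1 (adjusted p = 0.916). TP63, a transcription factor of basal epithelium, had 96.9% and 96.6% at day 3 and 96.2% at day 1 (adjusted p = 0.997). CLU, the secreted chaperone clusterin, had the largest difference of the list and was picked for it after its values were seen. Its leading isoform held 65.8% and 77.9% at day 3, against 61.4% at day 1, from 79, 86 and 88 counts of the gene (10.5 points, adjusted p = 0.997). The CLU shares at day 3 had an SD of 8.54 points (n = 2), and the share of replicate 1 lay closer to day 1 than to replicate 2. The keratins used to class the cells, KRT12 and KRT14, had 1 FSM isoform each.

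Of 30 junction and adhesion genes with an FSM isoform, 4 had several isoforms, and 0 of 4 passed with edgeR (1 at an unadjusted p under 0.05). ITGA6, the alpha chain of the laminin receptor in hemidesmosomes, had its leading isoform at 59.2% in each day 3 sample and 57.5% at day 1. CD44, the hyaluronan receptor, had 54.1% and 53.5% at day 3 and 53.4% at day 1. DSC3, a desmosomal cadherin, had 76.4% and 72.6% at day 3 and 76.4% at day 1. None of these differences was larger than 1.95 points, and the adjusted p-values were 0.997, 0.308 and 0.997.

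The remaining lists held few such genes. Nuclear genes of mitochondrial respiration had 2 among 53, ATP5F1C and the complex I subunit NDUFV3, whose isoform ENSMFAT00000029837 held 63.7% and 68.9% at day 3 and 45.9% at day 1. Both day 3 samples of NDUFV3 were higher, and the gene did not pass (20.4 points, adjusted p = 0.139). Ribosomal proteins had 1 among 41, translation factors 2 among 12, stress and redox genes 1 among 25, proteasome and ubiquitin genes 1 among 40, immediate early genes 1 among 13, and metabolism 0 among 7. None of these passed with edgeR, DESeq2 or limma voom. The ubiquitin-conjugating enzyme UBE2D3 was the 1 of them at an unadjusted p under 0.05, with an isoform at 49.9% and 50.3% at day 3 and 43.0% at day 1 (adjusted p = 0.592). The leading isoforms of EIF3E and EIF4H, translation initiation factors, PRDX5, a peroxiredoxin, and FOS, an immediate early transcription factor, differed by 1.43, 1.30, -1.06 and 0.0397 points. TNFRSF10B, a receptor of the ligand TRAIL, was among the most even genes with at least 200 counts and was no matched gene, at 54.1% and 50% at day 3 and 48.5% at day 1.

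The comparison of KRT12-high with KRT14-high cells asked whether differentiated and basal keratin states within a sample used the isoforms differently. KRT12-high cells numbered 162 and 156 at day 3 and 507 at day 1, and KRT14-high cells 187 and 168 at day 3 and 364 at day 1. The classes are ranges cut at a median and not cell types. At day 1 the median KRT14 share was 0, any cell with a KRT14 count was above it, and 68.8% of barcodes lay within 1 count of a cut, against 7.94% and 6.74% in day 3 replicates 1 and 2. Differentiated corneal markers summed to 28678, 26573 and 27122 CPM in KRT12-high cells and 8256, 7183 and 7765 CPM in KRT14-high cells (day 3 replicates 1 and 2, then day 1). Of these 6 markers, KRT3, KRT24, TKT and ALDH3A1 were higher in KRT12-high cells of all 3 samples. AQP5, a water channel, was lower in KRT12-high cells of all 3, with 62.2, 25.7 and 14.2 CPM against 120, 117 and 567 CPM in KRT14-high cells, and CLU was lower at day 1. Conjunctival markers summed to 904, 491 and 129 CPM in KRT12-high and 4419, 5090 and 3174 CPM in KRT14-high cells. The basal or limbal sum was lower in KRT12-high cells at day 3, with 14955 and 15020 against 17124 and 16127 CPM in KRT14-high cells, and higher at day 1, with 7891 against 5833 CPM. Most of that sum was KRT5, with 13023 and 12709 CPM in KRT12-high against 15153 and 14074 CPM in KRT14-high cells at day 3, and 6827 against 3740 CPM at day 1. The other members did not share 1 direction: KRT15 was lower in KRT12-high cells of all 3 samples, while TP63 was higher in all 3 and COL17A1 and ITGA6 were higher at day 3 and lower at day 1. Whether conjunctival cells take part in a difference between the classes was not tested.

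With counts summed per sample and class and the sample as a block, 0 of 582 genes passed an adjusted p of 0.05 in edgeR (0%), and 10 had an unadjusted p under 0.05. DESeq2 and limma voom also called 0, with 2 and 6 at an unadjusted p under 0.05. The lowest adjusted p was 0.922. Among the 248 genes with at least 20 counts in every sample and class, the isoform that differed most did so by a median of 2.15 points, and by over 10 points in 10 genes. It differed in the same direction in all 3 samples in 80 of them (32.3%). Leaving out day 1 replicate 2 brought the biological coefficient of variation to 0.0674, against 0.245 with it, and the lowest adjusted p to 0.0551, with 0 genes passing.

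ADH1B had the lowest unadjusted p, 0.00158. Its isoform ENSMFAT00000018864 held 6.96%, 5.70% and 2.36% of counts in KRT12-high cells of day 3 replicates 1 and 2 and day 1 replicate 2, against 21.6%, 16.9% and 3.79% in KRT14-high cells. It was lower in KRT12-high cells of all 3 samples, by more at day 3 than at day 1 (mean difference -9.09 ± 6.87 points, SD, n = 3). The PPP1CC isoform ENSMFAT00000011824 held 23.3%, 33.3% and 13% in KRT12-high cells, against 45.3%, 35.7% and 25% in KRT14-high cells. It too was lower in all 3, with a mean difference of -12.1 ± 9.82 points (SD, n = 3) from at least 39 gene counts in each sample and class. MFF, a receptor for the fission machinery of mitochondria, was chosen after its values were seen: 1 isoform held 41.9%, 37.9% and 46.2% in KRT12-high cells, against 58.6%, 50% and 65.8% in KRT14-high cells. These MFF shares came from as few as 29 gene counts in a class, and the mean difference was -16.1 ± 3.78 points (SD, n = 3). None of these 3 genes passed the adjusted threshold, which does not show that the classes use their isoforms alike.

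**Figure D5:**
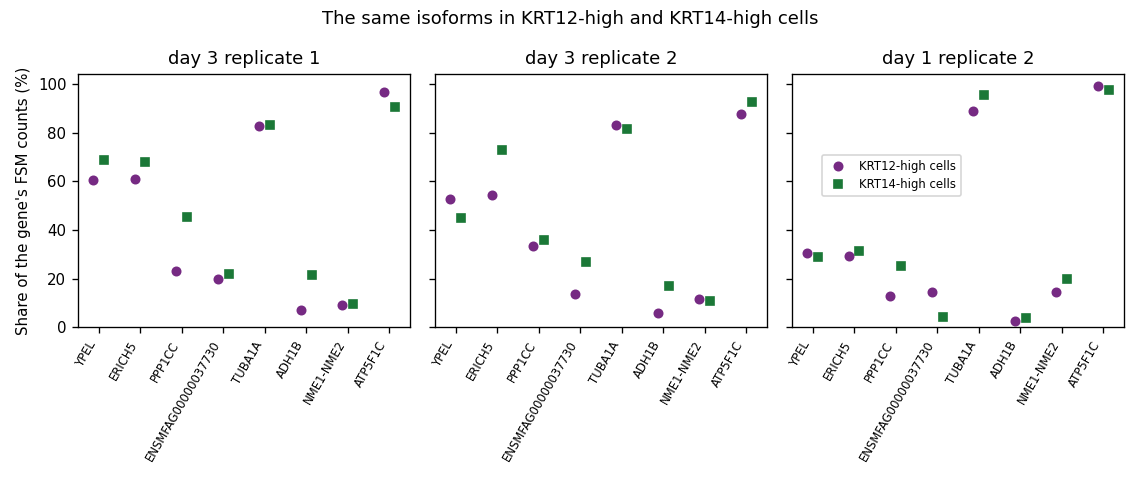
Share of the same isoforms of the 8 genes as a percentage of the FSM counts of the gene (y axis), in KRT12-high cells (purple circles) and KRT14-high cells (green squares) of each sample. In ADH1B, PPP1CC and ERICH5 the KRT12-high point lies below the KRT14-high point in all 3 panels; the other 5 genes change order between samples.

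The uninjured samples and day 1 replicate 1 could be read only through the size of the largest share of a gene. Among genes of the 647 with at least 20 FSM counts in the other naming system, the largest share in day 1 replicate 1 had a median of 83.5%. Over the 342 genes with at least 20 counts in both day 1 samples, the largest shares of day 1 replicate 1 and day 1 replicate 2 correlated with r = 0.0764 and differed by a median of 19.7 points, with 242 genes over 10 points apart. These are replicates of 1 group, and the naming systems differ between them, so shares were not compared between systems. Within the other system, the largest share was taken in each sample by itself, over all FSM isoforms of the gene. It may therefore belong to different isoforms in different samples. The largest ERICH5 share was 74.8% in day 1 replicate 1 and 53.6% and 54.7% in the uninjured samples. The largest PPP1CC share was 37.9% in day 1 replicate 1, against 61.6% and 62.8% in uninjured samples, and the largest NME1-NME2 share 83.3%, against 91.6% and 92.6%. The largest ADH1B share was 86.7%, against 78.3% and 78.6%, and that of YPEL 87.9%, against 70.3% and 78.3%. ENSMFAG00000037730 had 100% of 45 counts from 1 isoform in day 1 replicate 1, against 95.9% and 93.0% in uninjured samples. The largest ATP5F1C share was 66.9%, against 67.0% and 71.5%, so it was close to 1 of the uninjured samples, and that of TUBA1A was 99.8%, against 100% and 99.8%. None of these differences was tested.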

How the data were processed

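For each sample the authors deposited a gene table and an isoform table of count values per cell barcode, and the labels' protocols name 10x Genomics capture and HIT-scISOseq. Cell Ranger is named in the submitters' processing notes without a version or role. Not given in the sources used here are the aligner, genome build, annotation, barcode filters and any collapsing of reads per molecule, so no coordinates or sequences are printed. All rows and barcodes are those deposited; no doublet caller was run.

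FSM counts were summed per sample over barcodes of the matching gene table. Usage was tested with edgeR 4.0.16 (R 4.3.3; TMM, glmQLFit, diffSpliceDGE, gene-level F test, Benjamini-Hochberg over all genes tested at 0.05), with group as the only term for days and the sample as block for classes; scripts were tested on simulated data. limma 3.58.1 (voom), DESeq2 1.42.0, other scalings, count minimums, barcodes and class cuts were alternatives. Shares carry 95% Wilson intervals, which cover counting error only.

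Named genes were up to 12 per comparison past the threshold with samples that do not overlap, the 5 with the most isoforms, the 8 with the highest count, up to 3 per list by count, and the 5 most even genes with at least 200 counts. Genes and lists were chosen with earlier results of these data known, and some lists share members. Numbered replicates could not pair the days, since day 1 had 1 sample.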

Additional observations from a re-analysis of the deposited data

Results flagged for a closer look

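Of the deposited isoform counts, 9.77% in day 3 replicate 1, 9.53% in day 3 replicate 2 and 3.73% in day 1 replicate 2 lay on barcodes outside the gene table of the sample. They were listed because no comparison above uses them.

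The isoform ENSMFAT00000011199 of ENSMFAG00000037730 had a lower share in KRT12-high than in KRT14-high cells in both day 3 samples (-2.03 and -13.2 points) and a higher one in the day 1 sample (10.1 points). The ALDH3A1 isoform ENSMFAT00000030933 differed by -1.01 and -1.24 points at day 3 and by 0.504 points at day 1. Each was listed because the direction at day 3 was opposite to that at day 1. These differences between days were not tested, and day 1 had 1 sample.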

How the results depend on the processing

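The number of genes called between day 3 and day 1 was 8, and 8 to 11 with other scalings, limma voom, other count minimums or barcodes with at least 500 gene counts. It was 2 with a gene-level Simes p, 5 with DESeq2 (4 of them shared with the 8) and 15 with all barcodes of the isoform tables (all 8 included). With alternatives chosen after seeing the data it was 15 of 518 genes once isoforms with equal counts were merged (all 8 included), and 37 of 336 when only counts above the lowest isoform of a barcode were used (7 of the 8 included). The count of calls thus moved with the tool, the barcodes and the handling of equal counts; the cause was not tested. ATP5F1C was lost in that last alternative (adjusted p = 0.110). Beside the merging of equal counts, the 8 genes had 80 tests under alternatives, of which 68 kept the call and 12 lost it, 6 with the Simes p, 4 with DESeq2 and 1 each, both ATP5F1C, with limma voom and with counts above the lowest isoform. In these 80 tests, 0 values changed direction. Shares do not depend on the scaling, the tool or the Simes p, so values under those alternatives equal the main value and could not change direction. Only the alternatives with other count minimums, other barcodes or counts above the lowest isoform could do so. The 16 values without a day 3 replicate carry no test. They could not change direction, since both day 3 shares lay on 1 side of the day 1 share in each of the 8 genes. The sign of the difference turned with all barcodes in APLP2 (0.0289 points), CTTN (-0.0233), ENSMFAG00000002566 (-0.0881), FOS (0.0415) and PFKFB3 (0.152), all close to 0.

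Between KRT12-high and KRT14-high cells 0 genes were called with other scalings, tools, count minimums, barcodes or class cuts, including no replicate block (0) and leaving out each sample in turn (0 to 0); with counts above the lowest isoform 1 gene, ADH1B, was called (adjusted p = 0.00426). The median leading share of 58.5% was 56.4% with at least 50 counts per isoform, 61.5% with no count minimum and 63.3% with equal isoforms merged. The largest share in the other naming system had a median of 82.0% with at least 50 counts per gene. No paired analysis was possible because the day 3 and day 1 samples used share only 1 replicate number. Usage over all isoform classes was not run, since isoforms of other classes carry no reference gene name in these 3 tables. Counts of calls between days without a day 3 replicate were not run, since 1 sample against 1 leaves no residual degrees of freedom.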
